A study of Danio rerio with 16 samples.

Results

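Of the 31812 genes in the deposited table, 169 carry a symbol of an odorant or vomeronasal receptor. They were picked out by symbol, in a choice made with earlier results of these data known. There were 143 or genes (odorant receptors, with a subfamily number and a member number) and 22 v2r genes (type 2 vomeronasal receptors). The 4 ora genes are receptors related to type 1 vomeronasal receptors. The TP group was 8 pools of 30 wild-type WIK zebrafish larvae that spent 6 h in 1.6 µM triptolide (TP) at 5 dpf. The control group was 8 pools of 30 larvae of the same line and age in vehicle (DMSO, 0 µM TP). Each pool was a dish of whole larvae, so the olfactory epithelium was a small part of every sample, and fewer olfactory neurons cannot be told apart here from less receptor RNA per neuron.

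Fish smell with a paired olfactory organ in the snout that holds several kinds of receptor neuron. Ciliated neurons carry odorant receptors and signal through the G protein alpha subunit encoded by gnal, adenylyl cyclase and a cyclic nucleotide-gated channel. Microvillous neurons carry V2R receptors, which are related to taste and calcium-sensing receptors and are known in fish for amino acid detection, and they signal through the channel Trpc2. Crypt neurons carry an ora receptor. An olfactory neuron usually expresses a single or and few v2r genes out of a large repertoire, so each receptor is found in few cells of a larva.

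Levels are given as CPM, a gene's counts scaled to 1000000 counts of its library. Libraries held 26631852 to 41093922 counts in the TP group (median 34554464) and 19679120 to 75490916 in the control group (median 31374554). All values in the count table were multiples of 2, so a read pair was taken as 2 counts, worth 0.0487 to 0.0751 CPM in TP libraries and 0.0265 to 0.102 CPM in control libraries. All 169 receptor genes had at least 1 read pair in some library, but 37 of them (29 or, 7 v2r and 1 ora) had fewer than 20 counts over the 16 libraries and were not tested. A gene was called lower or higher where edgeR gave an adjusted p no larger than 0.01, adjusted over all 28227 genes tested. With library totals as the only scaling, the log2 fold change of all genes had a median of -0.33. With TMM factors, which centre most genes on no change, it was 0.01. Calls and medians below are from library totals, and the counts with TMM factors are given beside them.

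Of the 15 v2r genes tested, 10 fell. The family's summed level was 1.17 to 2.41 CPM in TP libraries (median 1.91), against 5.52 to 8.31 CPM in control libraries (median 6.44). No TP library reached the lowest control library. The mean was 1.85 ± 0.384 CPM in TP and 6.69 ± 0.969 CPM in control larvae (SD, n = 8 each), a log2 ratio of -1.85, or -1.52 with TMM factors. The 10 genes called lower were 66.7% of those tested and 0 were called higher, where 36.3% of all genes tested were lower and 5.21% were higher. With TMM factors 7 were lower and 0 higher, where 14.7% of all genes were lower and 14.8% higher. The median log2 fold change of the tested v2r genes was -2.32 (-1.99 with TMM factors). All 15 had a value below 0, as had 21302 of all 28227 genes tested. In 4 of the 15 every TP library lay below every control library, as in 18.2% of all genes tested. The deposited symbols name only part of the family: over the 50 genes that carry a V2R symbol today, the log2 ratio of the sums was -1.14, and of the 27 tested genes with such a symbol only today, 10 were lower and 2 higher (37.0% and 7.41%).

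**Figure D1:**
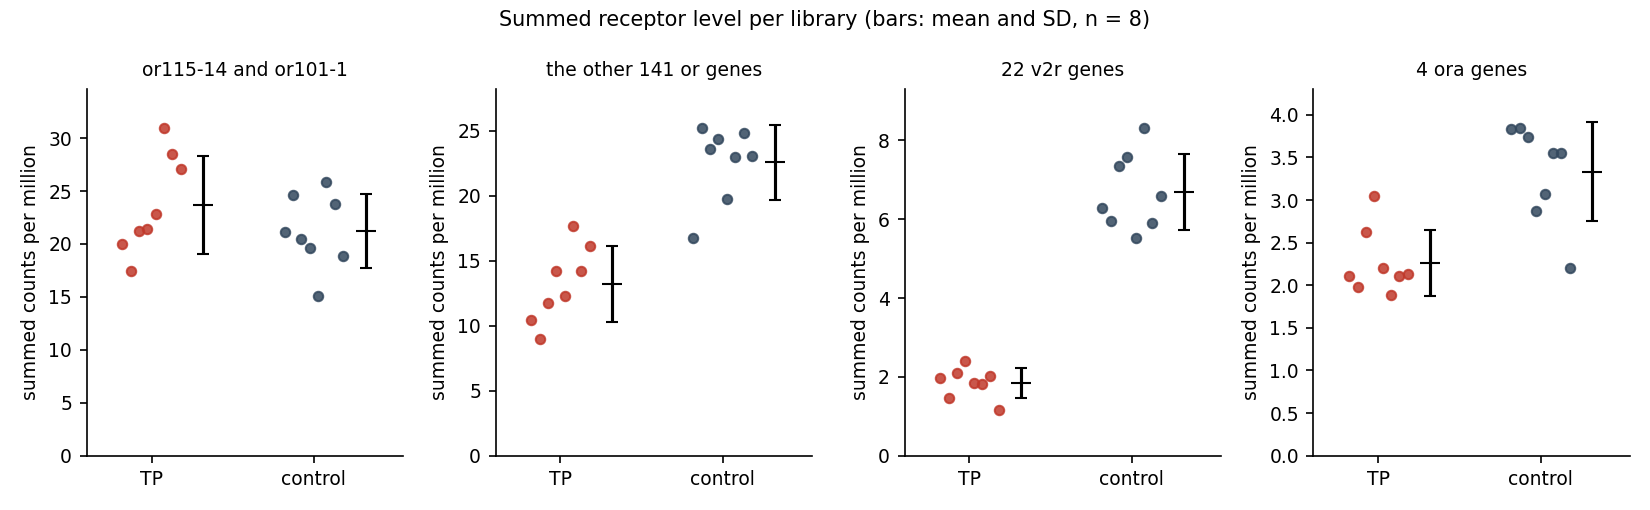
Summed level of receptor genes in each library, in CPM, for the pair of or genes with the most counts, the other 141 or genes, the 22 v2r genes and the 4 ora genes. Each point is a library (8 TP at the left, 8 control at the right of each panel) and the bars are the mean and SD. The v2r sums of TP libraries (1.17 to 2.41 CPM) all lie under those of control libraries (5.52 to 8.31 CPM), whereas the sums of or115-14 and or101-1 overlap.

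v2rl1 (current symbol vmn2r1, chromosome 18 from 34249496 to 34266534 on GRCz10) had the most counts of the family. In fish it is known as the V2R that microvillous neurons express broadly beside a more selective receptor. It was at 0.188 to 0.703 CPM in TP libraries (median 0.58), against 2.34 to 3.31 CPM in control libraries (median 2.61). All TP libraries were below all control libraries, and the log2 fold change was -2.32 (standard error, SE, 0.20; adjusted p = 5.2e-09 from edgeR). v2rl1 held 29.3% of the v2r counts in TP and 41.1% in control libraries. The other 21 v2r genes together were at 1.31 ± 0.445 CPM in TP and 3.96 ± 0.676 CPM in control larvae (SD, n = 8 each), again without overlap between groups.

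v2rh32 (olfcq3, chromosome 18 from 33399330 to 33403473) had the largest fall in the family. It had 4 counts, 2 read pairs, in a single TP library, against 94 counts spread over all 8 control libraries. The ratio of control to TP counts per total was 23.4 (95% counting interval 6.13 to 199, exact), with an adjusted p of 2.9e-05 from edgeR. v2rh14 (olfcq1, 33366273 to 33369720), which lies nearby, was at 0 to 0.148 CPM in TP libraries (median 0.0526) and at 0.318 to 0.523 CPM in control libraries (median 0.392). The groups did not overlap, and the log2 fold change was -2.96 (SE 0.50, adjusted p = 4.8e-05).

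A member of the same letter group did not follow. v2rh12 was at 0.153 to 1.08 CPM in TP libraries (median 0.545), against 0.251 to 1.07 CPM in control libraries (median 0.612). Its groups overlapped almost fully, and its log2 fold change of -0.28 (SE 0.36, adjusted p = 0.54) became 0.08 with TMM factors. The annotated span of v2rh12 (33411582 to 33552073) contains several other v2r genes and overlaps a further V2R gene, si:dkey-47k20.1, so reads of these genes may have been placed on each other's transcripts. v2rh9, inside that span, had a log2 fold change of -0.67 and also did not pass the threshold, nor did v2rh13 (-0.12, and 0.18 with TMM factors).

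The remaining v2r calls came from the v2ra, v2rc and v2rx groups. The v2rc genes summed to 0 to 0.169 CPM in TP libraries, against 0.203 to 0.78 CPM in control libraries, and both were called: v2rc1 (12 counts in TP, 66 in control, adjusted p = 0.0017) and v2rc2 (6 and 64 counts, adjusted p = 0.0018). The v2ra genes summed to 0.128 to 0.376 CPM in TP libraries, against 0.662 to 1.77 CPM in control libraries. The symbol v2ra18 belongs to 2 gene IDs. That at 33347920 to 33357046 had 10 counts in TP and 78 in control (adjusted p = 0.0019), and that at 33103452 to 33106034 had 32 and 94 (adjusted p = 0.0085). v2rx4 had 2 counts in TP and 34 in control libraries (adjusted p = 8.4e-04), v2ra20 had 4 and 38 (adjusted p = 0.0059) and v2rx1 had 32 and 124 (adjusted p = 0.0066). v2rx4 lies inside v2ra20, v2rc2 inside v2rc1 and the first v2ra18 gene inside v2ra16, so these pairs are uncertain as separate genes.

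Some of these calls were close to the threshold and were lost when any of several libraries was left out. v2rx1 lost its call without TP 1, 2 or 8 or control 2, 4 or 5 (adjusted p up to 0.016). v2ra20 lost it without control 1 or 6 or any TP library but TP 2 (up to 0.0163). The second v2ra18 gene lost it without any of 12 libraries, which were every TP library but TP 4 and control 1, 3, 4, 6 and 8 (up to 0.0185). The other 7 v2r calls were kept whichever library was left out.

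**Figure D2:**
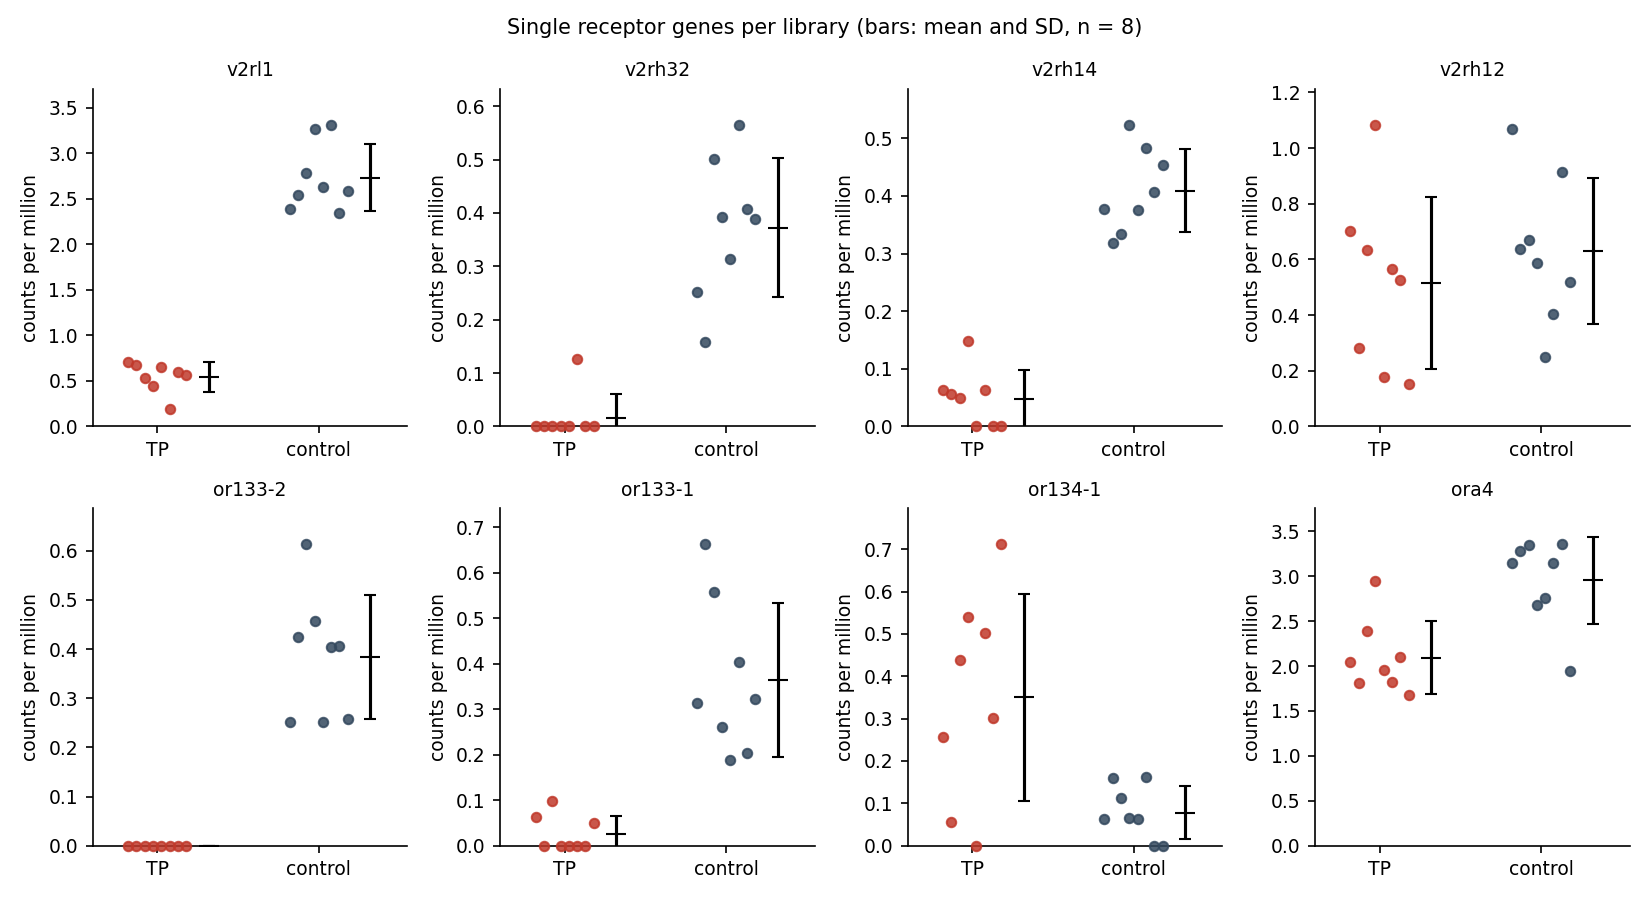
Level of 8 receptor genes in each library, in CPM, with 8 TP libraries at the left and 8 control libraries at the right of each panel and bars for the mean and SD (cut at 0). v2rl1, v2rh32, v2rh14, or133-2 and or133-1 do not overlap between groups, or133-2 is at 0 in all TP libraries, and v2rh12 overlaps.

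The or genes moved in both directions. Their summed level was 26.4 to 48.6 CPM in TP libraries (median 35.4), against 34.9 to 49.9 CPM in control libraries (median 44.0), and 5 of the 8 TP libraries lay within the control range. The log2 ratio of the means was -0.25 with library totals and turned to 0.085 with TMM factors. Of the 114 or genes tested, 28 were lower (24.6%) and 7 were higher (6.14%) in TP larvae, beside 36.3% and 5.21% of all genes. With TMM factors 17 were lower and 12 higher, beside 14.7% and 14.8% of all genes. The tested or genes had a median log2 fold change of -0.58, and of -0.22 with TMM factors. In 11 every TP library lay below every control library and in 0 above, beside 18.2% and 1.96% of all genes. Without the filter on low counts, 28 of the 143 or genes were lower and 8 higher, 10 of the 22 v2r genes were lower and 0 higher, and the shares of all genes were 33.6% and 4.84%.

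The sum was carried by a pair of genes on chromosome 21 that were not called. or115-14 (or70a2, 40191822 to 40194005) was at 11.3 to 22.1 CPM in TP libraries (median 14.9), against 10.2 to 16.1 CPM in control libraries (median 13.2). Its log2 fold change was 0.26 (SE 0.13, adjusted p = 0.099), and 0.60 with TMM factors, where it was called higher (adjusted p = 5.1e-04). or115-14 lies inside the annotated span of or115-12 (40179034 to 40203773), and the part of this overlap in its values was not tested. or101-1 (or6at1, 40290396 to 40293485) was at 6.10 to 9.09 CPM in TP libraries (median 7.56), against 4.89 to 9.68 CPM in control libraries (median 7.75). Its log2 fold change was -0.02 (SE 0.12, adjusted p = 0.88), and 0.31 with TMM factors (adjusted p = 0.030). Together they held 64.0% of the or counts in TP and 48.5% in control libraries. Levels per kilobase were also taken, with each transcript's counts divided by its own length and summed per gene. By this measure or115-14 was at 8.12 CPM in TP and 6.78 in control larvae and or101-1 at 2.85 and 2.99. v2rl1 was at 0.195 and 0.979 and ora4 at 0.679 and 0.982.

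Without this pair, the summed level of the or genes was lower on average in TP larvae. The other 141 genes summed to 8.97 to 17.7 CPM in TP libraries (median 13.2), against 16.8 to 25.2 CPM in control libraries (median 23.3). TP 6 was the single TP library above the lowest control library, control 1. The means were 13.2 ± 2.92 CPM in TP and 22.6 ± 2.88 CPM in control larvae (SD, n = 8 each), a log2 ratio of -0.77. With TMM factors the ratio was -0.45 and the groups overlapped more, at 9.97 to 19.5 in TP and 12.9 to 23.1 in control libraries, with 3 of 8 TP libraries below the lowest control library. Of the 112 genes tested, 28 were lower (25%) and 7 higher, beside 36.3% and 5.21% of all genes. With TMM factors 17 were lower and 11 higher, beside 14.7% and 14.8% of all genes.

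**Figure D3:**
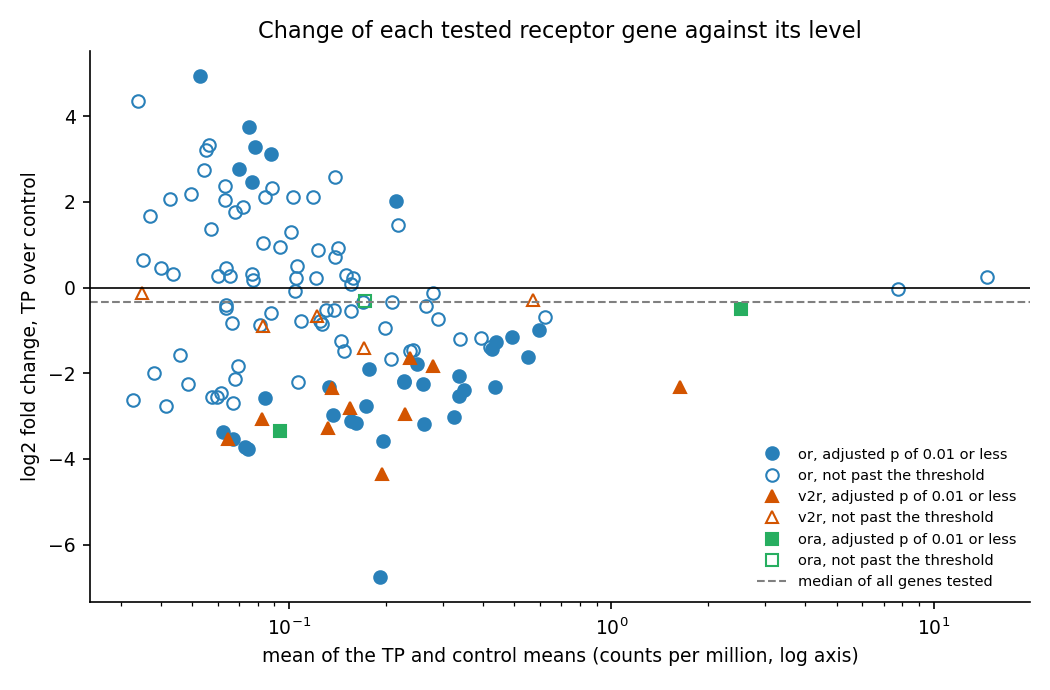
Log2 fold change of TP over control for the 132 receptor genes tested, against the mean level over both groups in CPM on a log axis. Filled points passed an adjusted p of 0.01 and the dashed line is the median of all genes tested (-0.33). The pair of or genes with the highest levels lies near 0, most other called or genes and all called v2r genes lie below, and the 7 or genes called higher are at low levels. The values of or133-2 and of or106-12, each at 0 in a group, depend on the fit's prior count.

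The calls are given here by the number of reads. Of the 34 or genes with more than 100 counts in all libraries together, 18 were lower and 1 was higher (11 and 3 with TMM factors), a share of 52.9% lower beside 36.3% of all genes. Of the 31 with 51 to 100 counts, 5 were lower and 0 higher (3 and 1), or 16.1% lower. Of the 49 with 20 to 50 counts, 5 were lower and 6 higher (3 and 8), or 10.2% and 12.2% beside 36.3% and 5.21% of all genes. In this last set 29 of the 49 had a log2 fold change above 0, beside 6925 of all 28227 genes tested.

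By class, as given in the gene descriptions, F and H had the most genes called lower. With library totals the share of H was below that of all genes. Of 12 class F genes tested, 8 were lower and 0 higher (6 and 1 with TMM factors) with a median log2 fold change of -2.31, a share of 66.7% lower beside 36.3% of all genes. The 1 member above 0 was or115-14. Without or115-14, the class summed to 0.64 to 1.38 CPM in TP libraries, against 3.08 to 4.68 CPM in control libraries, with no overlap. With or115-14 included, the log2 ratio of the class F sums was -0.03 (0.30 with TMM factors, where the groups overlapped). Of 28 class H genes, 9 were lower and 2 higher (6 and 2 with TMM factors, median -1.70). This was a share of 32.1% lower with library totals, beside 36.3% of all genes (14.7% with TMM factors). The class summed to 1.30 to 3.30 CPM in TP libraries, against 3.82 to 5.81 CPM in control libraries. The H sums overlapped once scaled with TMM factors. Class D had 3 lower and 2 higher of 25 (median 1.31), which turned to 1 lower and 5 higher with TMM factors. Its summed level was nevertheless lower on average in TP larvae, with a log2 ratio of -0.47 (-0.14 with TMM factors). Class E had 4 lower and 1 higher of 26 (median 0.22), and 2 of each with TMM factors. The log2 ratio of its sums was also below 0, at -0.41 (-0.098 with TMM factors). Class C had 2 lower and 1 higher of 9 (0 and 1 with TMM factors), and class G had 2 and 1 of 10 with either scaling. The 4 tested genes of classes A and B were not called with either. The shares lower in D and E were 12% and 15.4%, beside 36.3% of all genes.

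**Figure D4:**
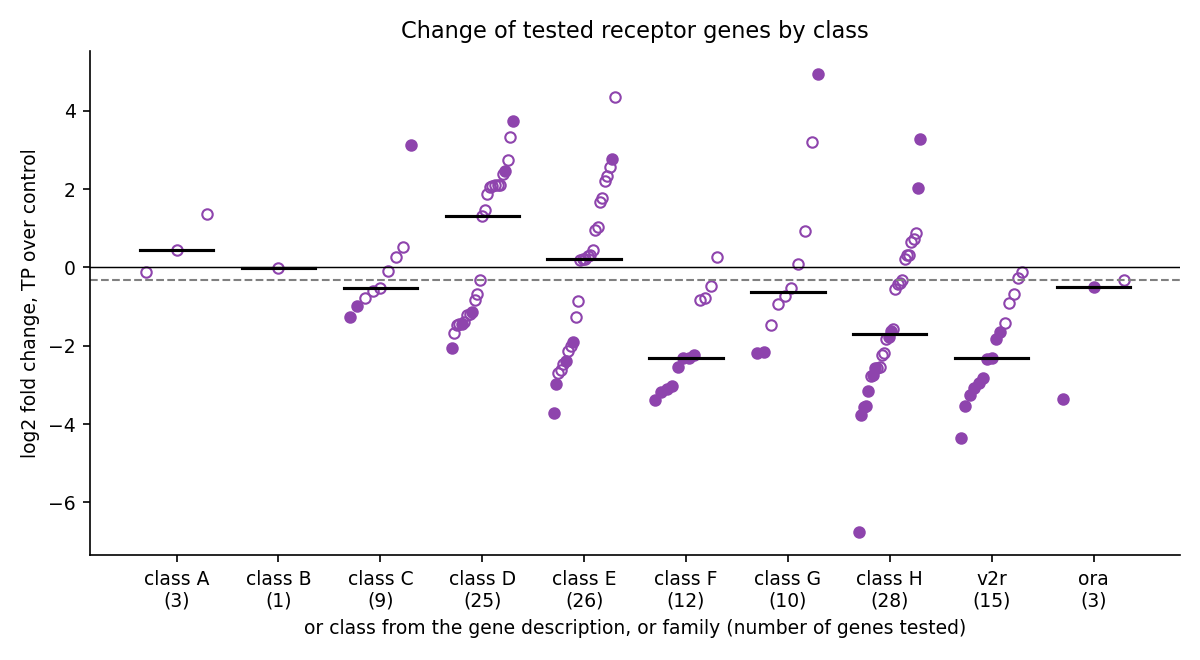
Log2 fold change of TP over control of each receptor gene tested, by or class and for the v2r and ora families, with the number tested in brackets. Filled points passed an adjusted p of 0.01, black bars are medians and the dashed line is the median of all genes (-0.33). Classes F and H and the v2r genes have their medians at -2.31, -1.70 and -2.32, and class D splits into members above and below 0.

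In class H, the or133 genes on chromosome 21 stood at or near 0 after TP. The 10 or133 genes together had 36 counts in TP and 450 in control libraries. or133-2 (or93a7, 21557143 to 21558072) had 0 counts in all 8 TP libraries, against 0.251 to 0.613 CPM in control libraries (median 0.405, 110 counts). Taking 3 read pairs over the TP group as the floor, it was at least 18.3-fold lower (adjusted p = 1.9e-06 from edgeR). or133-1 (or93a1, 21562789 to 21563928) was at 0 to 0.0973 CPM in TP libraries (median 0), against 0.188 to 0.662 CPM in control libraries (median 0.319). Its log2 fold change was -3.57 (SE 0.61, adjusted p = 4.9e-05), and its groups did not overlap. or133-9 had 1 read pair in TP and 16 in control libraries (adjusted p = 0.0026). All 7 or133 genes tested had a value below 0, as had 21302 of all 28227 genes tested. Of the 7, 5 were called lower (4 with TMM factors), beside 36.3% of all genes (14.7% with TMM factors). or125 and or133 were also the subfamilies whose TP sums lay below every control sum with either scaling: or125 had 26 counts in TP and 202 in control libraries, with 2 of its 5 tested genes lower (1 with TMM factors). or111, or116 and or130 did so with library totals only. The or133 genes lie inside the span of diablob, a gene of the apoptosis pathway, which was at 6.76 to 8.34 CPM in TP libraries and 8.99 to 11.8 CPM in control libraries, a log2 fold change of -0.41. Its part in the or133 values was not tested.

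A pair of further or genes had single read pairs left after TP. or129-1 had 2 counts in TP and 40 in control libraries, a ratio of control to TP counts per total of 19.9 (95% counting interval 3.19 to 826, exact; adjusted p = 0.0020). or125-5 had 2 and 38 counts, a ratio of 18.9 (3.01 to 786, adjusted p = 0.0039). The wide intervals show that the size of these falls was not resolved at this depth.

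Among the or genes with the most counts after or115-14 and or101-1, the falls were smaller. or132-5 was at 0 to 0.627 CPM in TP libraries (median 0.259), against 0.502 to 1.29 CPM in control libraries (median 0.729), a log2 fold change of -1.62 (SE 0.40, adjusted p = 0.0020). or111-11 was at 0.0973 to 0.384 CPM in TP libraries (median 0.217), against 0.251 to 0.874 CPM in control libraries (median 0.652), a log2 fold change of -1.44 (SE 0.33). or103-5, or111-7 and or103-1 had log2 fold changes of -1.26, -1.15 and -0.98. All 5 were called lower with library totals and none with TMM factors. or103-1 also lost its call without TP 1, 2, 3, 5, 7 or 8 or control 2, 3, 6 or 7 (adjusted p up to 0.0177). or109-11, with a similar number of counts, did not pass (log2 fold change -0.67, SE 0.34, adjusted p = 0.10). The or103 pair overlap each other on chromosome 15, and or111-7 lies within or111-3.

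The 7 or genes called higher were all called higher with TMM factors too. or134-1 (or90a1, chromosome 6 from 52861182 to 52862129) had the most reads of them. It was at 0 to 0.712 CPM in TP libraries (median 0.369), against 0 to 0.161 CPM in control libraries (median 0.0641), a log2 fold change of 2.02 (SE 0.63, adjusted p = 0.00998). The groups overlapped, as they did for each of the 7. The call was lost without TP 1, 3, 4, 6, 7 or 8 or control 1, 3, 4, 5, 7 or 8 (adjusted p up to 0.0268).

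The other 6 had at most 3 read pairs in the control group. or109-6 had 40 counts in TP and 2 in control libraries, a count ratio per total of 20.1 (95% counting interval 3.21 to 832, exact; adjusted p = 0.0019). or132-3 had 42 and 4 counts, a ratio of 10.5 (2.58 to 92.7, adjusted p = 0.0035). These 2 calls were kept whichever library was left out. or109-2 had 38 and 6 counts (ratio 6.36, 1.87 to 33.6, adjusted p = 0.0049), and lost its call without TP 8 or control 3 (up to 0.0109). or104-1 had 46 and 4 counts (ratio 11.5, 2.85 to 101, adjusted p = 0.0067), and lost it without TP 2, 4, 6 or 8 or control 1, 2, 3, 4, 7 or 8 (up to 0.0178). or126-7 had 34 and 4 counts (ratio 8.53, 2.03 to 76.2, adjusted p = 0.0097), and lost it without TP 1, 3, 5, 6, 7 or 8 or control 1, 2, 3, 6, 7 or 8 (up to 0.0267). or106-12 had 30 counts over 5 TP libraries and 0 in the control group, at least 5.02-fold higher against the same floor (adjusted p = 0.0060), and lost it without TP 1, 3, 5 or 6 or control 2 (up to 0.0138).

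The or genes lie mainly on chromosomes 15, 21 and 10. On chromosome 10, 2 of 25 tested were lower and 4 higher (2 and 6 with TMM factors), or 8% and 16% beside 36.3% and 5.21% of all genes, with a median log2 fold change of 1.31. The or109 genes there had 0 of 9 lower and 2 higher (0 and 4 with TMM factors) and a median of 2.11. On chromosome 15, 11 of 50 were lower and 1 higher (6 and 3 with TMM factors, median -0.49), a share of 22% lower. On chromosome 21, 14 of 28 were lower and 1 higher (9 and 2 with TMM factors, median -2.50), a share of 50% lower. The log2 ratios of the sums were 0.14, -0.77 and -0.12 on chromosomes 10, 15 and 21 (0.46, -0.44 and 0.22 with TMM factors). The sum on chromosome 21 includes or115-14 and or101-1. Of the 29 or genes of chromosome 10, 26 lie within the span of the gene model si:ch211-215a9.12 (36257436 to 36437285), among them or109-6, or109-2, or104-1 and or106-12. That gene itself had 24 counts in TP and 14 in control libraries, with an adjusted p of 0.53. Its part in these values was not tested.

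Of the 3 ora genes tested, ora4 and ora3 were called lower (66.7%), beside 36.3% of all genes. With TMM factors only ora3 was called lower, beside 14.7% of all genes. ora4 (chromosome 22 from 369734 to 375538), the receptor of crypt neurons in zebrafish, was at 1.68 to 2.95 CPM in TP libraries (median 2.003), against 1.94 to 3.35 CPM in control libraries (median 3.14). The groups overlapped, the log2 fold change was -0.49 (SE 0.15, adjusted p = 0.0078), and with TMM factors it was -0.15 and not called (adjusted p = 0.40). The call was also lost without TP 1, 2, 5, 6, 7 or 8 or control 1, 2, 3, 6 or 7 (adjusted p up to 0.0177). ora3 (376322 to 378506), next to ora4, had 4 counts in TP and 52 in control libraries, a ratio of control to TP counts per total of 12.9 (95% counting interval 3.24 to 113, exact; adjusted p = 0.0015). It stayed past the threshold with TMM factors (adjusted p = 0.0044). ora1 had 46 counts in TP and 60 in control libraries and did not pass (log2 fold change -0.31, and 0.04 with TMM factors). ora5 had 0 and 4 counts and was not tested. ora4 held 92.2% of the ora counts in TP and 87.9% in control libraries.

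The number of v2r genes seen in a library was lower in TP larvae after allowing for depth, and that of or genes overlapped. At the lowest library total, 4.88 to 10.01 v2r genes were expected with at least 1 read pair in TP libraries, against 13.2 to 16.0 in control libraries, out of 22. For or genes the range was 53.9 to 81.7 in TP libraries, against 67.2 to 83.0 in control libraries, out of 143, and it overlapped. It was 53.9 to 66.9 in TP 1 to 4 and 70.8 to 81.7 in TP 5 to 8. Before allowing for depth, the median was 90 or genes in TP and 87 in control libraries.

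Most markers of the olfactory neurons were lower as well, in larvae where 36.3% of all genes tested were called lower. The median change over all genes tested was -0.33 on the log2 scale. Of the 5 ciliated neuron markers 4 were found, and 3 were lower in TP larvae: ompb, the olfactory marker protein (log2 fold change -0.79), gnal (-0.83) and adcy3b, the adenylyl cyclase of the pathway (-1.72), while the channel subunit cnga4 did not pass (-0.68, adjusted p = 0.022). The 4 summed to 9.55 to 17.7 CPM in TP libraries, against 20.8 to 27.2 CPM in control libraries. The 3 microvillous markers were all lower, with log2 fold changes of -0.96 for trpc2b, -0.51 for the calcium-binding s100z and -1.52 for the G protein gamma subunit gng8. They summed to 4.93 to 6.91 CPM in TP libraries, against 9.76 to 12.3 CPM in control libraries. The lowest of all 7 was trpc2b, at 0.527 ± 0.259 CPM in TP and 1.05 ± 0.336 CPM in control larvae (SD, n = 8 each). Their part in the receptor results was not tested. With TMM factors ompb, trpc2b and s100z kept their direction and were not called, where 14.7% of all genes were called lower.

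A count of receptors per marker does not depend on the scaling. Per 100 counts of the 3 microvillous markers, there were 22.4 to 40.9 v2r counts in TP libraries (median 28.0), against 44.7 to 75.2 in control libraries (median 61.5). All TP libraries were below all control libraries, and the mean of control libraries was 1.97 times that of TP libraries. Per 100 counts of the 4 ciliated markers, or115-14 and or101-1 had 120 to 250 counts in TP libraries (median 193), against 72.6 to 112 in control libraries (median 80.2), with all TP libraries above. The other 141 or genes had 66.2 to 149 in TP libraries (median 107), against 62.8 to 104 in control libraries (median 96.1), and overlapped. These ratios were added after the levels had been seen and were not tested. The microvillous marker counts came mainly from s100z and gng8, as trpc2b was the lowest of these markers. Which cells of the larvae the marker counts came from was not tested, so the ratios are not levels per neuron.

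**Figure D5:**
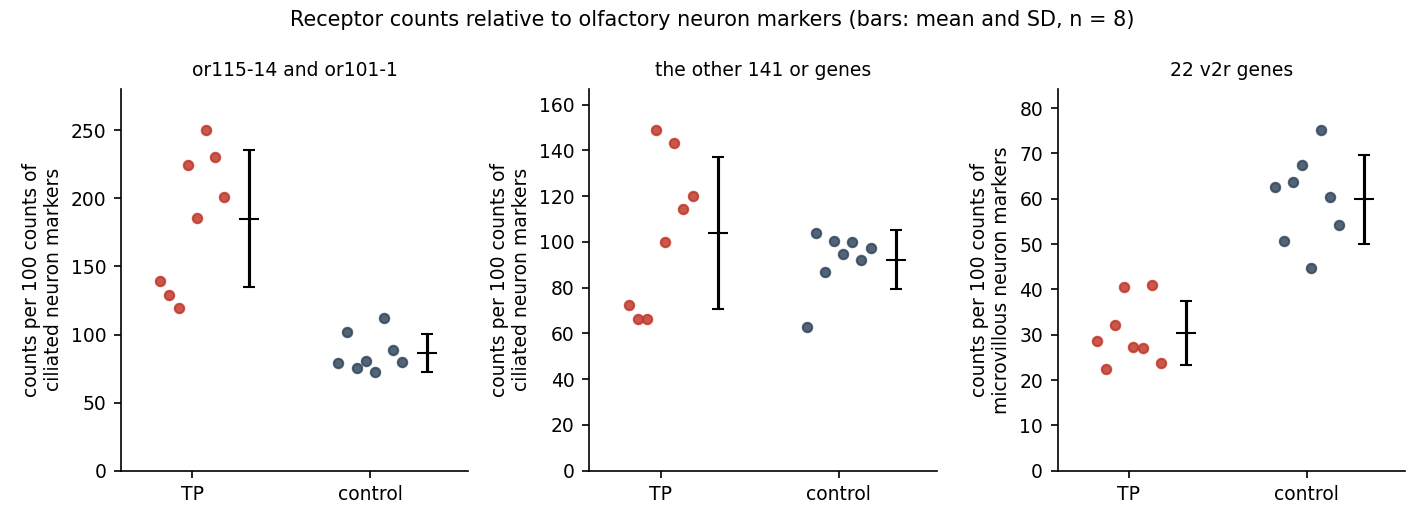
Receptor counts per 100 counts of olfactory neuron markers in the same library (ciliated: ompb, gnal, cnga4 and adcy3b; microvillous: trpc2b, s100z and gng8). Points are libraries, 8 TP at the left and 8 control at the right of each panel, and bars are the mean and SD. TP libraries lie above control for or115-14 and or101-1 (120 to 250 against 72.6 to 112), overlap for the other or genes, and lie below control for the v2r genes (22.4 to 40.9 against 44.7 to 75.2).

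The wider signalling lists are set beside all genes tested, of which 36.3% were lower and 5.21% higher (14.7% and 14.8% with TMM factors). Of 17 ciliated transduction genes, 11 were lower (64.7%) and 0 higher, with a median log2 fold change of -0.83 beside -0.33 for all genes. With TMM factors 9 were lower and 1, the chaperone ric8b, was higher. The largest falls were adcy3b, the chloride channel gene given as ANO2 (1 to many), currently ano2a (-1.46), the channel subunit cngb1a (-1.27) and the gamma subunit gng13b (-1.22). Of 10 microvillous transduction genes, 6 were lower (60%) and 0 higher (median -0.47), and 2 were lower with TMM factors, gng8 and the alpha subunit gnao1b (-1.46). gnai2a, at -0.30, turned to 0.04 with TMM factors. Several of these genes, gnao1b among them, are active in many neurons outside the nose.

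Of 25 transcription factors of the olfactory placode and its neurons, 21 were lower and 1 was higher (17 and 1 with TMM factors). This was 84% lower, beside 36.3% of all genes (14.7% with TMM factors), with a median log2 fold change of -1.22. neurod1, a neuronal differentiation factor, was at 18.0 ± 3.12 CPM in TP and 103 ± 9.57 CPM in control larvae (SD, n = 8 each; log2 fold change -2.52). atf5a, which in mice acts downstream of odorant receptor choice, fell by 1.90 and neurod4 by 1.79 on the log2 scale. lhx2b and ebf1a, homologues of factors that bind odorant receptor enhancers in mice, fell by 1.38 and 1.30. The exception was ebf3b, of the same family as ebf1a, at 2.90 ± 0.817 CPM in TP and 0.589 ± 0.14 CPM in control larvae (log2 fold change 2.30). All these factors are expressed elsewhere in the larva. General neuron markers had 5 of 14 lower and 0 higher (4 and 2 with TMM factors), a share of 35.7% lower that is near that of all genes. Photoreceptor markers had 10 of 12 lower and 0 higher (7 and 0), or 83.3% lower.

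The other chemoreceptor families had more genes higher than lower, where 5.21% of all genes were higher (14.8% with TMM factors). Of 10 taste and related class C receptor genes tested, 0 were lower and 3 were higher (0 and 4 with TMM factors): tas1r2.2 (log2 fold change 4.01), tas1r2.1 (2.80) and tas1r1 (2.195), which are type 1 taste receptor genes. Of 79 trace amine receptor genes tested, which are also used by olfactory neurons, 3 were lower and 50 higher, a share of 63.3% (3 and 54 with TMM factors). They summed to 26.8 to 63.7 CPM in TP libraries (median 53.2), against 8.99 to 13.9 CPM in control libraries (median 11.6). The largest changes among them were taar19f (52 counts in TP, 0 in control), taar10d (0 and 46), taar20w (298 and 6) and taar20z (288 and 8).

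The libraries differed in the share of counts on the transcript si:dkey-153m14.1. In both groups it was lower in libraries 1 to 4 than in 5 to 8. It was 0.900% to 2.18% and 3.16% to 4.06% in TP, and 0.548% to 0.923% and 3.38% to 6.42% in control. The labels do not explain this order and the fit did not include it. The sum of or115-14 and or101-1 was 17.4 to 21.5 CPM in TP 1 to 4 and 22.8 to 30.9 CPM in TP 5 to 8. In control libraries it was 19.6 to 24.7 and 15.1 to 25.8 CPM. The share on the transcript was under 2% in 2 TP and 4 control libraries and above 2% in the other 6 TP and 4 control libraries. Within the first set the v2r sum was 2.09 to 2.41 CPM in TP and 5.96 to 7.58 CPM in control libraries, and within the second 1.17 to 2.03 and 5.52 to 8.31 CPM. The sum of the 141 or genes was 11.7 to 14.2 CPM in TP and 16.8 to 25.2 CPM in control libraries in the first set, and 8.97 to 17.7 and 19.7 to 24.8 CPM in the second. With library totals, both differences were thus without overlap within each set, of which the first held only 2 TP libraries. The sets were not compared with TMM factors, with which the sums of the 141 or genes overlapped over all libraries.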

How the data were processed

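RNA of 16 pools of whole larvae (8 TP, 8 control) was sequenced by the authors from stranded total RNA libraries as paired reads. The authors deposited raw counts per transcript of Ensembl release 84 with positions on GRCz10. Per the methods, concordant pairs were aligned to the transcripts by Bowtie2. FastQC, SAMtools and limma are also named in the submitters' processing notes, with no version given in the sources used here. Reads shared by near-identical receptors may stand under any of those genes. Strand use in counting is not given either. Of the 169 members, 72 overlap another gene model.

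Counts were summed per gene, leaving out 209 transcripts without a gene ID (0.220% to 0.282% of counts), which stayed in the totals. Genes with at least 20 counts over the 16 libraries were tested with edgeR 4.0.16 in R 4.3.3 (quasi-likelihood, group only, library totals as scaling, Benjamini-Hochberg). Standard errors are the log2 fold change over the square root of F. Sums over a family carry no test. Count intervals (exact, 95%) take read pairs as independent and cover counting error only. Replicate pairs of a group differed by more than sampling noise (chi-square per degree of freedom at least 4.35 in TP and 4.07 in control). The fit was also run on simulated data in which few genes changed, up and down alike. These data differ from that setting, so the simulation does not bear on the choice of scaling.

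Members named are v2rh32 and or133-2, every ora, the 8 or and 6 v2r with the most counts, and members past the threshold (where a family had over 10 in a direction, the 5 with the largest change and the 5 with the most counts). v2rh32 and or133-2 were named because the authors list their transcripts among the most down-regulated in these same data. From each gene list come up to 4 genes past the threshold with the largest change, plus ompb, trpc2b, gnal and cnga4. Others in the text (lhx2b, ebf1a, v2rh9, v2rh13, gnao1b, ric8b, s100z and the spanning genes) were chosen after their values were seen or are markers. The members and lists were chosen with earlier results of these data known. Symbols are those deposited, and current symbols come from a gene name table that matched 127 members. Alternatives were TMM factors, DESeq2 1.42.0, limma 3.58.1 on log2 of scaled counts with a pseudocount of 1, other filters, halved counts, an adjusted p of 0.05, library subsets, leaving out each library and other choices of members. Columns of another series were 0. Receptor sequences were not used here.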

Additional observations from a re-analysis of the deposited data

Results flagged for a closer look

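Dixon's test was applied to the named members and the 3 family sums, 76 groups of 8 libraries (those at 0 throughout included). In 12 of them a library stood far from its group. The usual rate of about 1 in 20 by chance holds for normal values, not for counts near 0. A library that alone has reads is always flagged, so the 12 cannot be set against that rate. In 8 of the 12 the library was the only one of its group with any read. These were or129-1 (0.0594 CPM) and or133-9 (0.0594 CPM) in TP 5, or125-5 in TP 3 (0.0487 CPM), v2rh32 (0.125 CPM) and v2rx4 (0.0627 CPM) in TP 6, v2ra20 in TP 2 (0.113 CPM), or132-3 in control 2 (0.053 CPM) and or109-6 in control 1 (0.0628 CPM). In the other 4 the library was the highest, in CPM, of those with reads. These were ora1 in TP 8 (0.457 CPM, next 0.195), v2rh14 in TP 4 (0.148 CPM, next 0.064), v2ra20 in control 6 (0.403 CPM, next 0.189) and ora5 in control 8 (0.0647 CPM, next 0.0265). Both ora5 values are those of a single read pair, in libraries of different depth.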

How the results depend on the processing

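The direction of the pooled v2r and ora levels held under every alternative tried, and the pooled or level was 0.085 with TMM factors (-0.25 with library totals). Depth limited the single genes: most hold under 100 counts, and stricter filters left few of them. The cause of the changes below was not tested, except that stricter filters test fewer genes and library subsets hold fewer samples.

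With TMM factors, 17 or genes were lower and 12 higher (28 and 7 with library totals), 1 ora gene was lower (2), 2 microvillous transduction genes were lower (6) and 1 ciliated transduction gene was higher (0). The log2 ratios were -1.52 for v2r (-1.85) and -0.22 for ora (-0.56). With DESeq2, 13 or genes were higher, 1 ora gene lower, 2 microvillous genes lower and 1 higher, and 1 ciliated gene higher. With halved counts and TMM factors, 11 or genes were higher, 1 ora gene lower, 2 microvillous genes lower and 1 higher, and 1 ciliated gene higher. With filterByExpr, 9 or genes were lower and 0 higher, 2 v2r and 1 ora genes lower, and 0 trace amine receptors lower and 21 higher (3 and 50). Requiring 10 counts in 8 libraries gave 8 and 0 for or, 1 for v2r, 1 for ora, and 0 and 28 for trace amine receptors. At an adjusted p of 0.05, 43 or genes were lower and 18 higher.

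In libraries under 2% on si:dkey-153m14.1, 2 or genes were lower and 0 higher, 2 v2r and 0 ora genes were lower, and the lists had 3 ciliated (11), 2 microvillous and 11 development genes (21) lower and 0 trace amine receptors lower and 20 higher. In the others, 16 or genes were lower and 0 higher, 4 v2r and 0 ora genes were lower, and 2 microvillous genes and 1 trace amine receptor were lower.

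Without the member with the most counts, the log2 ratio was -0.54 for or and -1.18 for ora, and without both or115-14 and or101-1 it was -0.77 for or. With members taken by the current naming scheme it was -1.14 for v2r. Taking members by current symbol with the same pattern matched 3 ora genes and could not be fitted for or and v2r.

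Leaving out 1 library gave 23 to 29 or genes lower and 3 to 9 higher, 7 to 10 v2r genes and 1 to 2 ora genes lower, 10 to 12 ciliated, 5 to 7 microvillous and 21 to 22 development genes lower, 2 to 4 taste genes and 46 to 51 trace amine receptors higher. The log2 ratios were -0.31 to -0.19 for or, -1.92 to -1.78 for v2r and -0.63 to -0.53 for ora. The count of or genes higher was 4 without TP 1 or control 7 and 3 without TP 6, TP 8 or control 3. Of the 29 members named as lower or higher, 19 kept their call whichever library was left out.

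Among the members named by rule, changes of sign came from 3 that were not called. v2rh13 and gnai2a, which are outside that rule, also changed sign with TMM factors. or101-1 was 0.31 with TMM factors, 0.33 with DESeq2, 0.32 with halved counts and TMM factors, and -0.10 to 0.0232 with a library left out. ora1 was 0.0382, 0.0534 and 0.021 under the same settings and 0.11 in libraries at or over 2%. v2rh12 was 0.0779, 0.094 and 0.0841 under them and 0.22 in libraries under 2%. Over all named members and settings, 657 values kept their direction and side of the threshold, 164 lost the threshold, 3 gained it (or115-14) and 15 turned sign.

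No paired analysis was run, because the sample labels do not say that TP and control pools were paired.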

Other observations

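Outside the members chosen by deposited symbol, 32 further genes carry a V2R (olfc) symbol in the current gene name table, and their values were more mixed. Of 27 tested, 10 were lower and 2 higher in TP larvae (36.3% and 5.21% of all genes tested; 7 and 2 with TMM factors), with a median log2 fold change of -1.38. They summed to 3.65 to 8.57 CPM in TP libraries (median 6.32), against 8.55 to 13.2 CPM in control libraries (median 11.5), and 7 of the 8 TP libraries lay below the lowest control library. olfcd3 had 16 counts in TP and 210 in control libraries (log2 fold change -3.54, adjusted p = 3.6e-06 from edgeR), without overlap between groups. The gene with the symbol olfcb1 (deposited as si:ch1073-155h21.1), on chromosome 20 and so apart from the v2r genes of chromosome 18, was higher in all TP libraries: 146 counts in TP and 56 in control libraries, a log2 fold change of 1.48 (adjusted p = 7.6e-04). olfcq20 (si:ch211-203b20.4) had 38 and 2 counts (adjusted p = 0.0012). The 2 with the most counts, olfcq11 (454 in TP, 550 in control) and olfcg2 (372 and 418), did not pass the threshold.

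Of 6 further genes with an or symbol today, 5 were tested and 3 were lower (2 with TMM factors): or70a1 (si:ch211-218m3.19, 6 counts in TP and 94 in control), or90d1 (si:dkeyp-3f10.14, 10 and 84) and or70a5 (si:ch211-218m3.9, 12 and 66). The 6 summed to 0 to 0.559 CPM in TP libraries, against 0.711 to 1.63 CPM in control libraries. A further ora gene, ora3.2, had 8 counts in each group and was not tested. These genes were looked up after the values of the members had been seen.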
